A study of Mus musculus with 6 samples.

Results

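The genes described here are 35 members of the ATF4 programme and of the amino acid supply it serves, out of 28154 genes in the deposited table. They were chosen by name, with earlier results of these data known, so shares of all tested genes set beside them are a description only. By role they were divided into 15 regulators, 11 amino acid synthesis enzymes and 9 amino acid transporters. All 35 were in the table, and all 35 passed the filter on low counts, 3 of them (Gdf15, Fgf21 and Cbs) with at most 26 counts in any library. RNA sequencing was done on 4T1 cells, a mouse mammary carcinoma cell line, in 2 groups of 3 libraries. The first group had been treated with corticosterone, the main glucocorticoid of rodents, and the second was labelled control. The labels give no genotype, further agent, vehicle, dose or duration for either group. They also leave unsaid whether each replicate was a culture of its own, so the spread behind the p-values may be technical.

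ATF4 is a leucine zipper transcription factor whose translation increases when the initiation factor eIF2 is phosphorylated, for example by a kinase that senses uncharged tRNA or by one that senses misfolded protein in the endoplasmic reticulum. It pairs with C/EBP and other leucine zipper proteins on composite elements and drives genes for amino acid synthesis, amino acid import and tRNA charging. The same programme holds its own brakes, among them Ppp1r15a, which brings a phosphatase to eIF2, and Trib3, which binds ATF4. In tumour cells the pathway is known for sustaining the supply of asparagine, serine, glycine, proline and cystine.

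The promoters of the members were searched for the composite element of ATF4 and C/EBP, spelled TGATGNAA and read on both strands, in RefSeq windows of build GRCm38.p6 that run from 250 bases before to 50 bases after a start site. Windows were found for 30 of the 35 members, and Cth, Eif4ebp1, Slc1a5, Slc7a3 and Slc7a5 had none. The element was present in 10 of the 30 (33.3%), against 1219 of 27025 genes with a window (4.51%). The longer spelling TGATGNAAT, which contains the first, was present in 3 of the 30 and in 1.08% of all genes. The short core TGATG, which lies inside both, was present in 17 of the 30 (56.7%) and in 42.92% of all genes. The core of a glucocorticoid receptor element, spelled ACANNNTGT and read on both strands, was in 0 of the 30 members and in 7.9% of all genes, which says only that these letters are not in these windows. The stretches below show the element with its surroundings in 9 of the 10 members that hold it, because they span both genes that rose and genes that did not. Each is written 5′ to 3′ on the strand that carries the element, and the capitals mark the element.
Asns: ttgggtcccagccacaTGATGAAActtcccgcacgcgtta
Atf3: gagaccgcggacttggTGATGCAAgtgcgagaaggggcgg
Chac1: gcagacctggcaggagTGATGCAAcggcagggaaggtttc
Fgf21: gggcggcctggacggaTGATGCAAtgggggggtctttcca
Nupr1: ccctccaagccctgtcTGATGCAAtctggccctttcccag
Pycr1: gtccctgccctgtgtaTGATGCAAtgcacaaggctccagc
Slc1a4: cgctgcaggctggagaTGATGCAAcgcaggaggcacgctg
Slc7a11, first element: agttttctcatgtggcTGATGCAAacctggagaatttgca
Slc7a11, second element: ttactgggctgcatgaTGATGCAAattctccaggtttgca
Vldlr: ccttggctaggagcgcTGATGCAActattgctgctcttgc

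Asns, the asparagine synthetase gene, carries the form with A at the variable base (chr6:7693209-7693248, minus strand), from 23 to 16 bases before its start. The form with C stands in the others shown. It lies from 103 to 96 bases before the start in Pycr1 (chr11:120643828-120643867, minus strand) and from 110 to 103 bases before it in both Atf3 (chr1:191183420-191183459, plus strand) and Nupr1 (chr7:126625557-126625596, plus strand). In Chac1 (chr2:119351033-119351072, minus strand) it lies from 193 to 186 bases before the start. In Vldlr (chr19:27216804-27216843, minus strand) it lies from 200 to 193 bases before the start site of a second, downstream window. The first Vldlr window (chr19:27216234-27216533), which spans the start of the gene in the deposited table, holds no element. The Atf3 window (chr1:191183284-191183583) lies downstream of the gene start in the deposited table, at 191218039. So does the Nupr1 window (chr7:126625421-126625720), with a gene start at 126630861. Slc7a11, the cystine transporter gene, holds 2 elements on opposite strands (chr3:50443656-50443695, minus strand, and chr3:50443637-50443676, plus strand). The Slc1a4 stretch is chr11:20332694-20332733 and the Fgf21 stretch chr7:45615606-45615645, both on the plus strand. Trib3 holds the form with T, from 14 to 21 bases after the start site of its window. All these distances are from the RefSeq start site, which can differ from the gene start in the deposited table. There Trib3 starts at 152344032, downstream of its element, and Asns at 7693254, upstream of its element. Of the 10 members with the element 7 were called higher with corticosterone, with a median log2 fold change of 0.58, and of the 20 without it 12 were called higher, with a median of 0.44. A match of letters is a description, and binding was not measured.

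With corticosterone, 20 of the 35 members rose and 0 fell. The rise was modest in size: the log2 fold changes of the 20 ran between 0.37 (Psat1, a serine synthesis enzyme) and 0.80 (Chac1, which degrades glutathione). In bulk RNA, more cells that express a gene and more of its RNA per cell cannot be told apart. A gene is called, and is said to have risen or fallen, where edgeR's quasi-likelihood test gave a Benjamini-Hochberg adjusted p under 0.05 over all 17283 tested genes. By that rule 2.82% of tested genes were called in either direction, 1.35% higher and 1.46% lower. The median log2 fold change of the members was 0.44, beside 0.00 over all tested genes. It was positive in 32 of the 35, beside 8643 of the 17283 tested genes. For 28 of the 35, all 3 corticosterone libraries were above all 3 control libraries, beside 10.6% of tested genes. The groups also did not overlap for Cbs, which was lower with corticosterone at 11 to 19 counts. At an unadjusted p under 0.05 there were 27 members higher, beside 8.23% of tested genes, and 0 lower, beside 8.80%. DESeq2 called 27 members higher and 0 lower, and 4.04% of the genes to which it gave an adjusted p were higher. limma on log2(FPKM + 1) called 21 higher and 0 lower, and 1.82% of its tested genes were higher.

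Single libraries moved these counts. Without corticosterone replicate 2, 27 members were called higher, but so were 10.5% of all tested genes. Of the 20 calls, 7 were kept whichever library was left out (Chac1, Ppp1r15a, Asns, Aldh18a1, Gpt2, Slc7a5 and Slc6a9), beside 0.474% of tested genes that were called and kept in that way. The fewest members called higher after leaving out a library was 7, without control replicate 2, where 0.336% of tested genes were called higher.

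**Figure D1:**
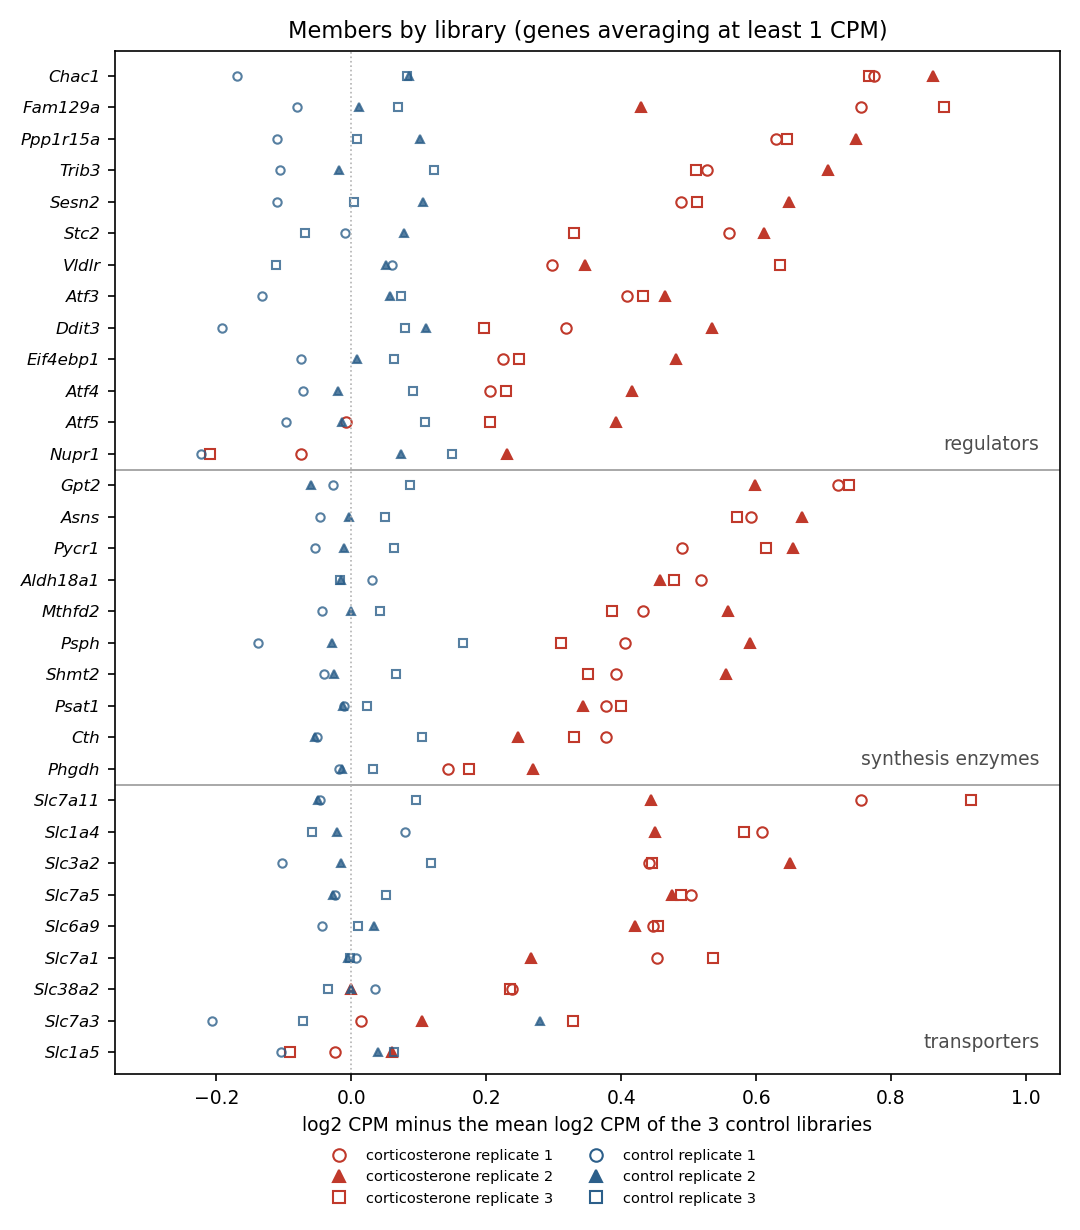
Log2 CPM (counts scaled to library size with TMM factors) of each member in each library, minus the mean log2 CPM of the 3 control libraries, for the 32 members that average at least 1 CPM (Gdf15, Fgf21 and Cbs are left out). Red marks are corticosterone libraries and blue marks control libraries, with a shape for each replicate number. The red marks stand to the right of the blue ones except in Atf5, Nupr1, Slc38a2, Slc7a3 and Slc1a5, where the groups overlap.

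Of the 15 regulators 7 rose, 8 were not called, and the median log2 fold change was 0.50. Chac1 (ENSMUSG00000027313, chromosome 2, 119351229 to 119354381) stood at 91.2, 96.8 and 90.7 CPM (counts scaled to library size) in corticosterone replicates 1, 2 and 3, against 47.4, 56.6 and 56.4 CPM in control replicates 1, 2 and 3. Every corticosterone library was thus well above the highest control library. Its log2 fold change was 0.80 (SE 0.08, adjusted p = 0.00276), the largest among the called members. Ppp1r15a (ENSMUSG00000040435, chromosome 7, 45522916 to 45526268), the brake on eIF2 phosphorylation, stood at 86.7, 94.2 and 87.7 CPM with corticosterone and at 52.0, 60.2 and 56.4 CPM in controls. The groups were again far apart, and the log2 fold change was 0.67 (SE 0.07, adjusted p = 0.00286). Trib3, the pseudokinase that binds ATF4, stood at 125, 142 and 124 CPM with corticosterone and at 80.7, 85.8 and 94.6 CPM in controls. Its log2 fold change was 0.58 (SE 0.08, adjusted p = 0.0086), with corticosterone replicate 2 highest.

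The other 4 regulators that rose were Sesn2, Atf3, Stc2 and Fam129a. Sesn2, a leucine sensor that restrains mTORC1, stood at 24.1, 26.9 and 24.5 CPM with corticosterone and at 15.9, 18.5 and 17.2 CPM in controls (log2 fold change 0.55, SE 0.09, adjusted p = 0.0162). Atf3, a stress-induced leucine zipper factor, stood at 88.6, 92.2 and 90.1 CPM with corticosterone and at 60.9, 69.5 and 70.3 CPM in controls (log2 fold change 0.43, SE 0.07, adjusted p = 0.0159). Stc2, which encodes the secreted glycoprotein stanniocalcin 2, stood at 30.0, 31.1 and 25.6 CPM with corticosterone and at 20.2, 21.5 and 19.4 CPM in controls (log2 fold change 0.50, SE 0.09, adjusted p = 0.0291). In each of these 3 genes the groups were separate. Fam129a, also called Niban, stood at 45.4, 36.2 and 49.5 CPM with corticosterone and at 25.4, 27.1 and 28.2 CPM in controls (log2 fold change 0.70, SE 0.12, adjusted p = 0.0188). Here corticosterone replicate 2 was the lowest of the treated libraries. The call of Trib3 was lost without control replicate 2 (adjusted p = 0.0805). Those of Atf3 and Stc2 were lost without any 1 of the control replicates or without corticosterone replicate 1, and those of Sesn2 and Fam129a were lost without any library other than corticosterone replicate 2. The highest adjusted p was 0.0855 for Atf3, 0.162 for Stc2, 0.0844 for Sesn2 and 0.112 for Fam129a.

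Atf4 mRNA itself was not called. It stood at 368, 426 and 374 CPM with corticosterone and at 303, 315 and 340 CPM in controls, so the groups were separate but the difference was small (log2 fold change 0.28, SE 0.07, adjusted p = 0.088). Without corticosterone replicate 2 its log2 fold change was 0.21 and its adjusted p 0.0179. On all 6 libraries DESeq2 called it (adjusted p = 0.00706) and limma on log2(FPKM + 1) did not (adjusted p = 0.0591). ATF4 is regulated largely through translation, and protein was not measured. Eif4ebp1, a repressor of cap-dependent translation, stood at 197, 235 and 200 CPM with corticosterone and at 160, 170 and 176 CPM in controls (log2 fold change 0.32, SE 0.08, adjusted p = 0.0742). Ddit3, which encodes the cell death factor CHOP, stood at 66.2, 76.9 and 60.9 CPM with corticosterone and at 46.5, 57.4 and 56.2 CPM in controls (log2 fold change 0.35, SE 0.11, adjusted p = 0.149). Vldlr, a lipoprotein receptor, stood at 11.2, 11.6 and 14.2 CPM with corticosterone and at 9.49, 9.44 and 8.43 CPM in controls (log2 fold change 0.43, SE 0.12, adjusted p = 0.108). The groups were separate in all 3, and the test did not call them. Without corticosterone replicate 2, Eif4ebp1 (adjusted p = 0.0103) and Vldlr (adjusted p = 0.0287) were called and Ddit3 (adjusted p = 0.0773) was not. DESeq2 on all 6 libraries called Eif4ebp1 (adjusted p = 0.00385), Ddit3 (adjusted p = 0.0266) and Vldlr (adjusted p = 0.0288). The limma fit on log2(FPKM + 1) called neither Eif4ebp1 (adjusted p = 0.0519) nor Ddit3 (adjusted p = 0.116) and gave no value for Vldlr. Ddit3 shares 4.0% of its exon bases with Mars on the opposite strand, a gene of 9546 to 13956 counts, beside 2955 to 5017 counts for Ddit3.

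The remaining regulators overlapped between groups or were close to the floor of detection. Atf5, a relative of ATF4 that is also controlled through translation, stood at 52.5, 69.3 and 60.9 CPM with corticosterone and at 49.4, 52.3 and 57.0 CPM in controls (log2 fold change 0.20, SE 0.10, adjusted p = 0.371). Nupr1, a small chromatin-associated stress protein, stood at 116, 144 and 106 CPM with corticosterone and at 105, 129 and 136 CPM in controls. Its log2 fold change was -0.01 (SE 0.13), although its promoter holds the longer spelling of the element. The 2 stress hormone genes were hardly detected. Gdf15 had 12, 18 and 26 counts with corticosterone and 8, 12 and 12 counts in controls. Fgf21 had 23, 8 and 11 counts with corticosterone and 12, 15 and 0 counts in controls, where a count of 0 in control replicate 3 allows up to 0.0455 CPM. At this depth no difference was detectable in either gene.

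Of the 11 synthesis enzymes 7 rose, and the median log2 fold change was 0.44. Asns (ENSMUSG00000029752, chromosome 6, 7675169 to 7693254) stood at 307, 323 and 302 CPM with corticosterone and at 197, 203 and 210 CPM in controls. Both groups were tight and far apart, with a log2 fold change of 0.61 (SE 0.05), and its adjusted p of 0.00152 was the lowest of the 35 members. Gpt2, the mitochondrial alanine transaminase, stood at 83.3, 76.6 and 84.3 CPM with corticosterone and at 49.6, 48.5 and 53.7 CPM in controls. Its log2 fold change was 0.69 (SE 0.07, adjusted p = 0.00257), the largest of the enzymes.

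The proline branch rose with both of its members. Aldh18a1, which starts proline synthesis from glutamate, stood at 196, 188 and 190 CPM with corticosterone and at 140, 135 and 135 CPM in controls (log2 fold change 0.48, SE 0.05, adjusted p = 0.0026). Pycr1, which completes it in mitochondria, stood at 15, 16.8 and 16.3 CPM with corticosterone and at 10.3, 10.6 and 11.2 CPM in controls (log2 fold change 0.59, SE 0.09, adjusted p = 0.0122). The groups were separate in both genes. The call of Pycr1 was lost without any library other than corticosterone replicate 2 (highest adjusted p = 0.0977).

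In the serine branch, which runs through Phgdh, Psat1 and Psph, Psat1 alone passed the edgeR test, DESeq2 called all 3, and all 3 had separate groups. Psat1 stood at 445, 435 and 452 CPM with corticosterone and at 340, 340 and 348 CPM in controls (log2 fold change 0.37, SE 0.05, adjusted p = 0.00647). Psph stood at 98.6, 112 and 92.4 CPM with corticosterone and at 67.7, 73.0 and 83.5 CPM in controls (log2 fold change 0.44, SE 0.10, adjusted p = 0.0578). The first enzyme, Phgdh, stood at 429, 469 and 439 CPM with corticosterone and at 384, 385 and 398 CPM in controls (log2 fold change 0.20, SE 0.05, adjusted p = 0.105). Its difference was the smallest of the 3. Phgdh counts are uncertain, because 7 processed copies align over most of its transcript at 95% identity or more. The copies include Gm7901, at 2519 to 3170 counts, and Gm9347, at 1882 to 2470 counts, beside 24394 to 30591 counts for Phgdh. Psph shares 10.4% of its exon bases with Cct6a on the opposite strand, a gene of 28055 to 30255 counts, and no source used here says whether the libraries keep strand. The call of Psat1 was lost without control replicate 1 or 2 or corticosterone replicate 1 (highest adjusted p = 0.0784).

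The mitochondrial one-carbon enzymes downstream of serine both rose. Shmt2, which splits serine into glycine and a one-carbon unit, stood at 467, 524 and 454 CPM with corticosterone and at 346, 350 and 373 CPM in controls (log2 fold change 0.44, SE 0.07, adjusted p = 0.0145). Mthfd2, which oxidises that unit, stood at 164, 178 and 158 CPM with corticosterone and at 118, 121 and 125 CPM in controls (log2 fold change 0.46, SE 0.06, adjusted p = 0.00732). In both genes corticosterone replicate 2 was the highest library. The call of Mthfd2 was lost without control replicate 2 (adjusted p = 0.0733). That of Shmt2 was lost without any 1 of the control replicates or without corticosterone replicate 1 (highest adjusted p = 0.114). Of the transsulfuration enzymes that make cysteine, Cth stood at 30.6, 28.0 and 29.6 CPM with corticosterone and at 22.8, 22.7 and 25.3 CPM in controls (log2 fold change 0.32, SE 0.08, adjusted p = 0.0793). Cbs had 11 counts in each corticosterone library and 18, 19 and 12 counts in controls, too few to show a difference. Without corticosterone replicate 2, Phgdh (adjusted p = 0.0185), Psph (adjusted p = 0.016) and Cth (adjusted p = 0.014) were also called. DESeq2 on all 6 libraries called Phgdh (adjusted p = 0.0196), Psph (adjusted p = 0.000713) and Cth (adjusted p = 0.0119). The limma fit on log2(FPKM + 1) called Psph (adjusted p = 0.0449) but not Phgdh (adjusted p = 0.0625) or Cth (adjusted p = 0.0563).

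For 3 of these enzymes a paralogue in the table offers a comparison within each library, by the ratio of FPKM, which is scaled to length and depth. The pairs were chosen after their values were seen. The ratio of Shmt2 to Shmt1, the cytosolic form, was 7.69 ± 0.16 with corticosterone and 5.39 ± 0.17 in controls (SD, n = 3 each). The ratio of Mthfd2 to Mthfd1, the cytosolic trifunctional enzyme, was 1.69 ± 0.04 with corticosterone and 1.23 ± 0.05 in controls. The ratio of Gpt2 to Gpt, the cytosolic transaminase, was 8.26 ± 1.66 with corticosterone and 4.24 ± 0.51 in controls. In all 3 pairs each corticosterone library had a higher ratio than each control library. Because Shmt2, Mthfd2 and Gpt2 had already been called higher, these ratios restate their rise and add no separate evidence for it. The log2 fold changes of the partners were -0.08 for Shmt1, -0.00 for Mthfd1 and -0.25 for Gpt, and none of these 3 was called.

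**Figure D2:**
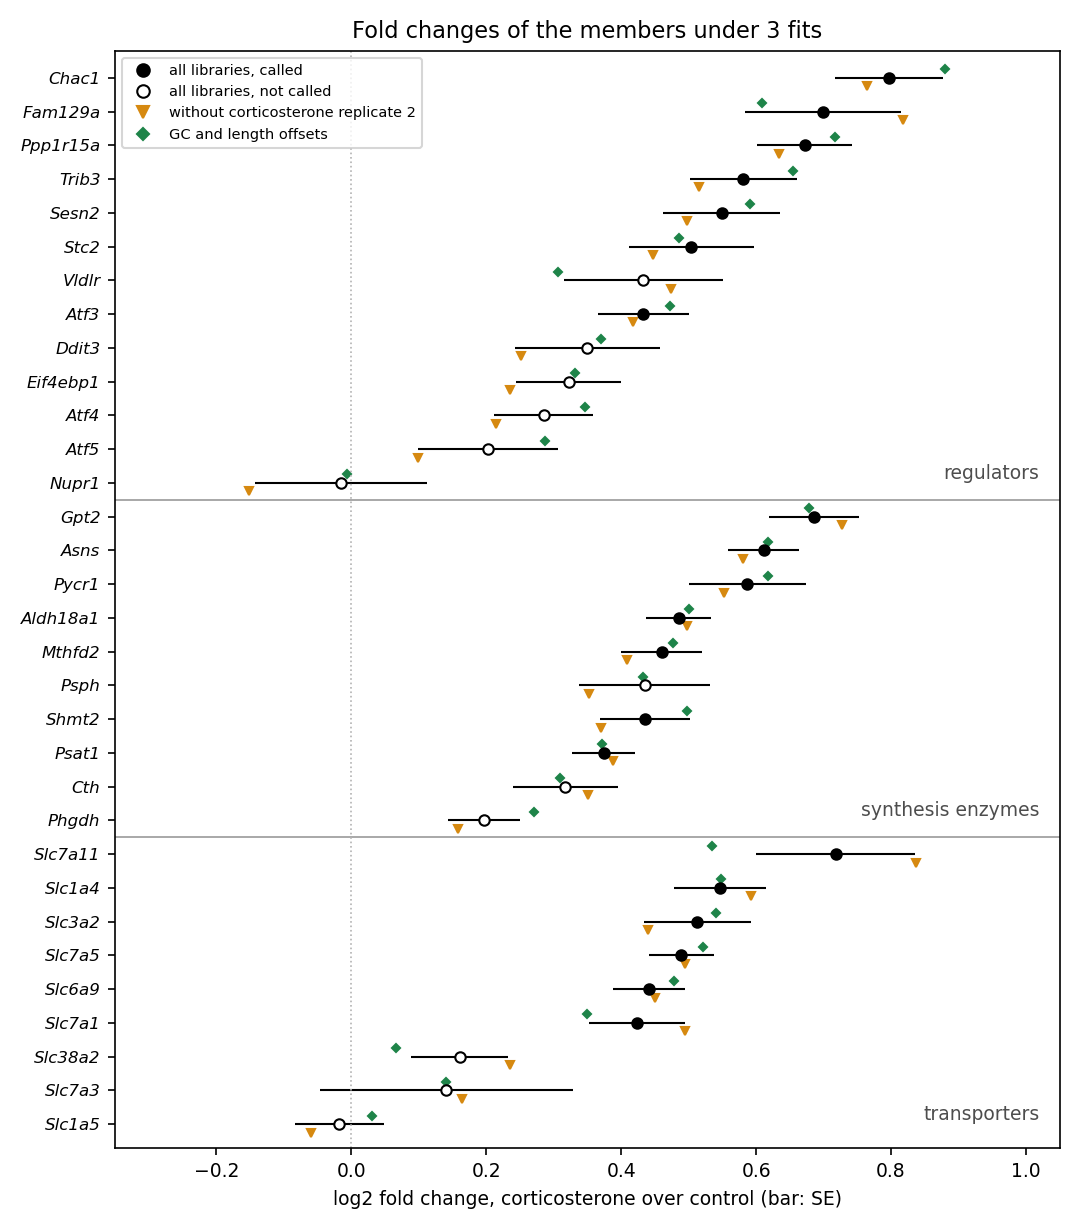
Log2 fold change (corticosterone over control) of the 32 members that average at least 1 CPM, by role. Circles with SE bars are the fit of all 6 libraries, filled where called, triangles the fit without corticosterone replicate 2, and diamonds the fit with offsets for transcript GC content and length. Circles are filled in 20 genes, and the 3 values of a gene lie on the same side of 0 in every gene shown except Slc1a5.

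Of the 9 transporters 6 rose, and the median log2 fold change was 0.44. Slc7a5 (ENSMUSG00000040010, chromosome 8, 121881150 to 121907694), the light chain of the large neutral amino acid exchanger, stood at 272, 267 and 269 CPM with corticosterone and at 189, 188 and 199 CPM in controls. The groups were tight, with a log2 fold change of 0.49 (SE 0.05, adjusted p = 0.00261). Its partner Slc3a2, the heavy chain shared with the cystine exchanger, stood at 355, 410 and 356 CPM with corticosterone and at 244, 259 and 284 CPM in controls (log2 fold change 0.51, SE 0.08, adjusted p = 0.0151). Slc7a11, the light chain of that cystine exchanger, stood at 49.6, 40.0 and 55.5 CPM with corticosterone and at 28.4, 28.4 and 31.4 CPM in controls (log2 fold change 0.72, SE 0.12, adjusted p = 0.0188). All 3 exchanger chains thus rose, with Slc3a2 highest and Slc7a11 lowest in corticosterone replicate 2. A stretch of 373 bases (4.0%) of the Slc7a11 transcript aligns in reverse orientation to Tuba1b at 96.2% identity, and to other tubulin genes. Tuba1b had 58467 to 73734 counts, beside 1806 to 3629 counts for Slc7a11, and an effect of this likeness on the counts was not tested.

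The other 3 that rose carry small neutral, cationic and glycine substrates. Slc1a4, an exchanger of alanine, serine and cysteine, stood at 72.3, 64.8 and 71.0 CPM with corticosterone and at 50.1, 46.8 and 45.6 CPM in controls (log2 fold change 0.55, SE 0.07, adjusted p = 0.0064). Slc6a9, a glycine transporter, stood at 80.6, 79.2 and 81.1 CPM with corticosterone and at 57.4, 60.6 and 59.6 CPM in controls (log2 fold change 0.44, SE 0.05, adjusted p = 0.00539). Slc7a1, a transporter of arginine and lysine, stood at 173, 152 and 184 CPM with corticosterone and at 127, 126 and 126 CPM in controls (log2 fold change 0.42, SE 0.07, adjusted p = 0.0208). The groups were separate in each. Slc6a9 shares 27.8% of its exon bases with Ccdc24 on the opposite strand, a gene of 106 to 572 counts, beside 3646 to 5303 counts for Slc6a9. The call of Slc1a4 was lost without control replicate 2 (adjusted p = 0.0636), and that of Slc3a2 without control replicate 1 or 2 or corticosterone replicate 1 (highest adjusted p = 0.111). That of Slc7a11 was lost without any 1 of the control replicates or without corticosterone replicate 1 (highest adjusted p = 0.119), and that of Slc7a1 without any library other than corticosterone replicate 2 (highest adjusted p = 0.131).

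The groups overlapped in the 3 transporters that were not called. Slc38a2, a sodium-coupled carrier of small neutral amino acids, stood at 452, 383 and 451 CPM with corticosterone and at 393, 383 and 374 CPM in controls. Corticosterone replicates 1 and 3 were above all controls and replicate 2 lay among them (log2 fold change 0.16, SE 0.07, adjusted p = 0.303). Without corticosterone replicate 2 its log2 fold change was 0.23 (adjusted p = 0.00407). Slc1a5, the glutamine exchanger, stood at 129, 137 and 123 CPM with corticosterone and at 122, 135 and 137 CPM in controls (log2 fold change -0.02, SE 0.07). Slc7a3, a second transporter of cationic amino acids, stood at 2.13, 2.27 and 2.65 CPM with corticosterone and at 1.83, 2.56 and 2.01 CPM in controls (log2 fold change 0.14, SE 0.19).

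Levels of different genes were compared as the deposited FPKM. The length behind it is not given and is not that of the longest annotated transcript. In Slc6a9, 80.6 CPM beside 14.0 FPKM in corticosterone replicate 1 implies more than its 3479-base transcript. The order of genes at close levels could therefore differ with another length. The highest was Phgdh, at 159 ± 5.06 FPKM with corticosterone and 138 ± 2.05 FPKM in controls (SD, n = 3 each). Atf4 came next, at 146 ± 9.62 FPKM with corticosterone and 120 ± 6.43 FPKM in controls. It was followed by Shmt2, at 137 ± 8.39 FPKM with corticosterone and 101 ± 3.61 FPKM in controls. The spreads of Phgdh and Atf4 touch with corticosterone, as do those of Atf4 and Shmt2. Asns stood at 101 ± 2.0 FPKM with corticosterone and 65.7 ± 1.94 FPKM in controls. Slc7a11 was much scarcer and stood at 3.09 ± 0.54 FPKM with corticosterone and 1.86 ± 0.10 FPKM in controls, far below its heavy chain Slc3a2, at 94.0 ± 6.42 FPKM with corticosterone and 65.6 ± 4.79 FPKM in controls. Slc7a5 lay between these chains, at 64.5 ± 1.5 FPKM with corticosterone and 45.7 ± 1.21 FPKM in controls. Among transporters of cationic amino acids, Slc7a1 stood at 13.1 ± 1.42 FPKM with corticosterone and 9.70 ± 0.07 FPKM in controls, and Slc7a3 at 0.542 ± 0.065 FPKM with corticosterone and 0.490 ± 0.088 FPKM in controls. Members that rose were thus found among both the abundant and the scarce transcripts.

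**Figure D3:**
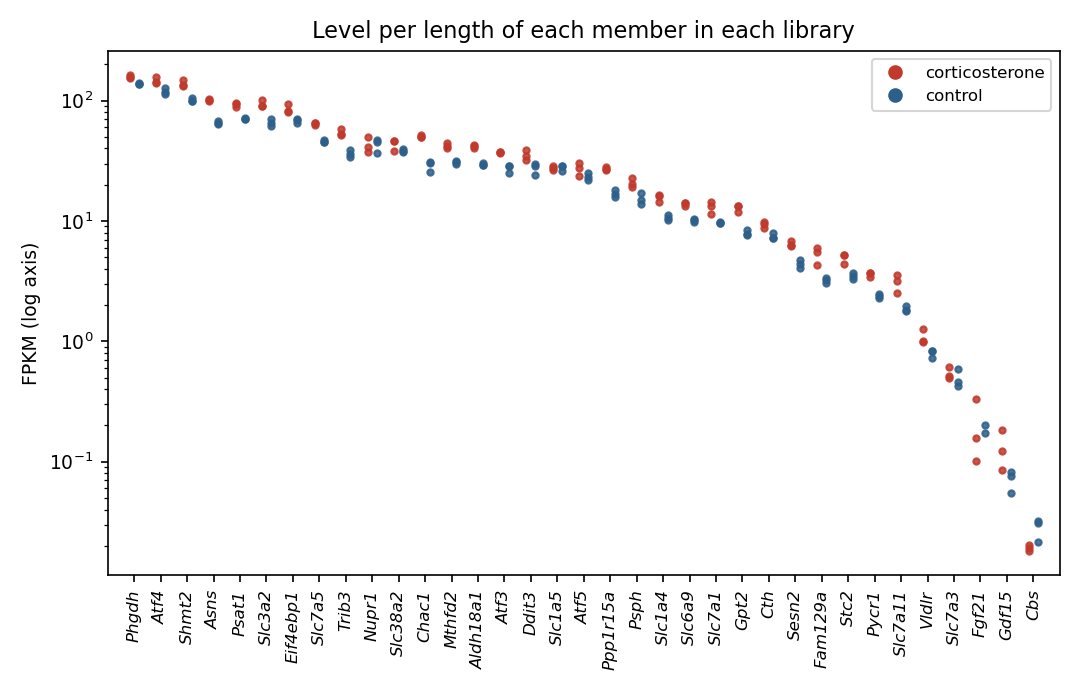
FPKM (log axis) of the 35 members in each library, ordered by their mean over the 6 libraries, with corticosterone in red and control in blue. Levels run from Phgdh at the left down to Cbs, and control replicate 3 of Fgf21, listed at 0, cannot be drawn on this axis.

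Corticosterone replicate 2 differed from both other treated libraries in a way that followed transcript length and GC content. Over 17258 tested genes with an annotated transcript, the deviation of that library from its group correlated with length at Spearman rho -0.32 and with GC content at 0.33. Corticosterone replicate 1 gave 0.16 and -0.17, and corticosterone replicate 3 gave 0.29 and -0.30, as deviations within a group of 3 sum to 0. Control libraries showed such trends too, with 0.20 and -0.18 in control replicate 1, -0.04 and 0.03 in control replicate 2, and -0.20 and 0.16 in control replicate 3. These values describe genes that share a library and have no test. Among the 35 members the difference of replicate 2 from the mean of replicates 1 and 3 had a rho of -0.45 with length and 0.33 with GC content. All 5 members over 5000 bases that average at least 1 CPM (Slc7a11, Vldlr, Slc7a1, Fam129a and Slc38a2) were lower in replicate 2, by a log2 difference between -0.39 and -0.12. Of the 27 shorter ones 19 were higher in it, with Nupr1 (0.37), Atf5 (0.29) and Ddit3 (0.28) at the top. Replicate 2 was thus the highest treated library in 19 of the 35 members, among them 11 regulators, 6 enzymes and 2 transporters.

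The mean level over the members was above that of every control library in each of the 3 treated libraries. Relative to the control mean, the mean log2 CPM of the 32 members that average at least 1 CPM was 0.41, 0.46 and 0.43 in corticosterone replicates 1, 2 and 3, and -0.07, 0.02 and 0.05 in control replicates 1, 2 and 3. With offsets that take out the trend of each library on GC content and length, an alternative chosen after seeing the data, 25 members were called higher, beside 2.68% of tested genes, and 0 lower. The offsets were fitted to deviations from the mean of all 6 libraries, not of each group. They therefore also take out any difference between the groups that follows GC content or length. Under these offsets Slc7a11 had a log2 fold change of 0.54 and Fam129a one of 0.61, both smaller than without them, and Atf4 one of 0.35 (adjusted p = 0.00269) and Phgdh one of 0.27 (adjusted p = 0.0104), both larger. Slc38a2 had 0.07 (adjusted p = 0.457), and Slc1a5, at 0.03 (adjusted p = 0.772), turned from slightly negative to slightly positive.

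**Figure D4:**
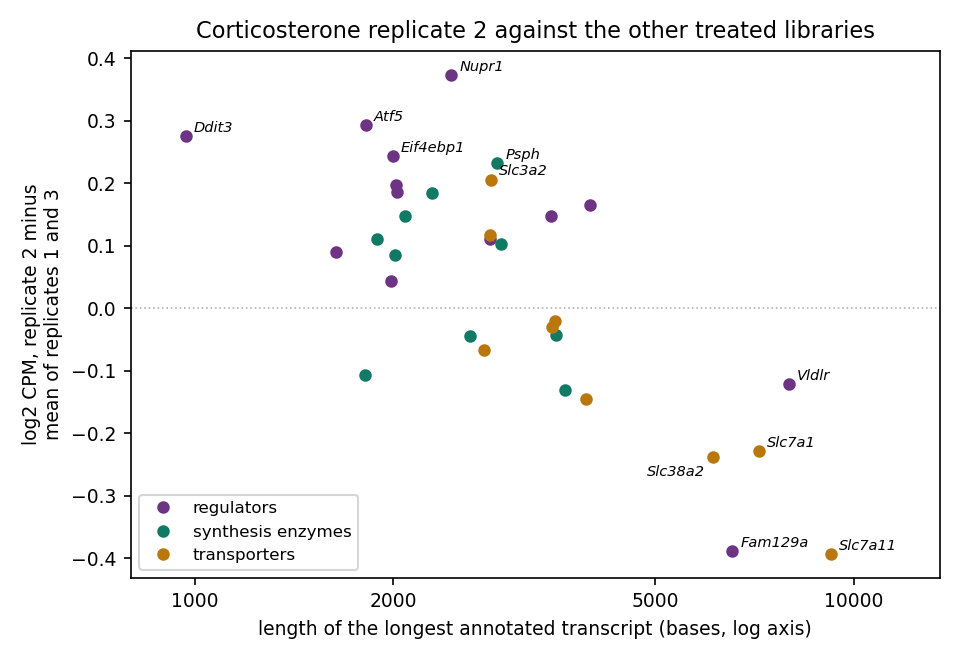
Log2 CPM of corticosterone replicate 2 minus the mean of corticosterone replicates 1 and 3, against the length of the longest annotated transcript (log axis), for the 32 members that average at least 1 CPM, coloured by role. The 5 members over 5000 bases all lie below 0, and Nupr1 is the highest point.

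Other genes of the pathway were read from the same fit, in which 1.35% of tested genes were called higher and 1.46% lower. Upstream of ATF4, 1 of 18 genes for eIF2, its kinases and its exchange factor rose, and the median log2 fold change was 0.10. The fold change was positive in 15 of the 18, beside 8643 of the 17283 tested genes. For 5 of the 18, all corticosterone libraries were above all control libraries, beside 10.6% of tested genes. At an unadjusted p under 0.05 there were 3 higher, beside 8.23% of tested genes, and 0 lower, beside 8.80%. The one called was Eif2s2, which encodes the beta subunit of eIF2, at 228, 232 and 224 CPM with corticosterone and 191, 192 and 196 CPM in controls (log2 fold change 0.24, SE 0.05, adjusted p = 0.0322). That call was lost without any library other than corticosterone replicate 2, and the highest adjusted p was 0.212. With the GC and length offsets its log2 fold change was 0.14 (adjusted p = 0.376). Of 12 leucine zipper partners of ATF4, 3 rose and 0 fell, with a median of 0.18. Their fold changes were positive in 10 of the 12, and in 4 of the 12 the corticosterone libraries were all above the controls. The 3 called were Jdp2 (log2 fold change 0.40, adjusted p = 0.0298), Cebpg, a C/EBP member known to pair with ATF4 (0.33, adjusted p = 0.0316), and Fosl1 (0.34, adjusted p = 0.0454). Fosl1 shares 57.2% of its exon bases with Ccdc85b on the opposite strand, a gene of 8407 to 11523 counts. The calls of Jdp2 and Cebpg were lost without any library other than corticosterone replicate 2, and that of Fosl1 without any 1 of the control replicates or without corticosterone replicate 1, the highest adjusted p being 0.160 for Jdp2, 0.193 for Cebpg and 0.216 for Fosl1.

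Of 24 other genes known as ATF4 targets 13 rose and 0 fell, with a median log2 fold change of 0.32. The lowest p-values belonged to aminoacyl-tRNA synthetases, which charge tRNA. Lars stood at 181, 182 and 183 CPM with corticosterone and at 131, 135 and 135 CPM in controls (log2 fold change 0.45, SE 0.05, adjusted p = 0.00285). Nars stood at 423, 405 and 420 CPM with corticosterone and at 294, 293 and 308 CPM in controls (log2 fold change 0.48, SE 0.05, adjusted p = 0.00285). Both calls were kept whichever library was left out. Tars rose by 0.41 on the log2 scale (SE 0.05, adjusted p = 0.005) and Pck2, the mitochondrial enzyme that makes phosphoenolpyruvate, by 0.52 (SE 0.06, adjusted p = 0.00552), and both calls were lost without control replicate 2 (adjusted p = 0.0636 for Tars and 0.0611 for Pck2). Across the list, 2 calls were kept whichever library was left out, and the count of genes called higher ran from 2 to 19.

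Genes of amino acid metabolism and transport outside the members had medians near 0. Of 22 other synthesis enzymes 1 rose and 0 fell, with a median log2 fold change of -0.01. It was Got1, the cytosolic aspartate transaminase (log2 fold change 0.27, SE 0.05, adjusted p = 0.0355), and its call was lost without any library other than corticosterone replicate 2 (highest adjusted p = 0.177). Of 18 other amino acid transporters tested 0 were called by edgeR, with a median of 0.06. At an unadjusted p under 0.05 there were 4 higher, beside 8.23% of tested genes, and 1 lower, beside 8.80%. The groups did not overlap in 5 that were higher, beside 10.6% of tested genes, and in 2 that were lower, beside 2007 of 17283. DESeq2 called 1 higher and limma 0, beside 4.04% and 1.82% of the genes each of them tested. The lowest p-values were those of Slc36a1, a lysosomal carrier (log2 fold change 0.29, SE 0.08, adjusted p = 0.11), and Slc38a1, a glutamine carrier (0.23, SE 0.08, adjusted p = 0.2). The difference between the members and these lists was not tested.

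Of 22 targets of XBP1 and ATF6, the other transcription factors of the response to misfolded protein in the endoplasmic reticulum, 2 rose and 0 fell, with a median log2 fold change of 0.13. It was positive in 20 of the 22. At an unadjusted p under 0.05 there were 10 higher, beside 8.23% of tested genes, and 0 lower, beside 8.80%. For 10 of the 22, all 3 corticosterone libraries were above all 3 control libraries, beside 10.6% of tested genes. Herpud1, a factor of protein degradation there that ATF4 also drives, stood at 115, 119 and 112 CPM with corticosterone and at 77.1, 79.7 and 83.3 CPM in controls (log2 fold change 0.53, SE 0.05, adjusted p = 0.00286). Hspa5, the chaperone BiP, rose by 0.41 on the log2 scale (SE 0.05, adjusted p = 0.0046), and its call was lost without control replicate 2 (adjusted p = 0.0586). Without corticosterone replicate 2, 10 of the 22 were called higher and 1 lower, and 10.5% of all tested genes were called higher.

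**Figure D5:**
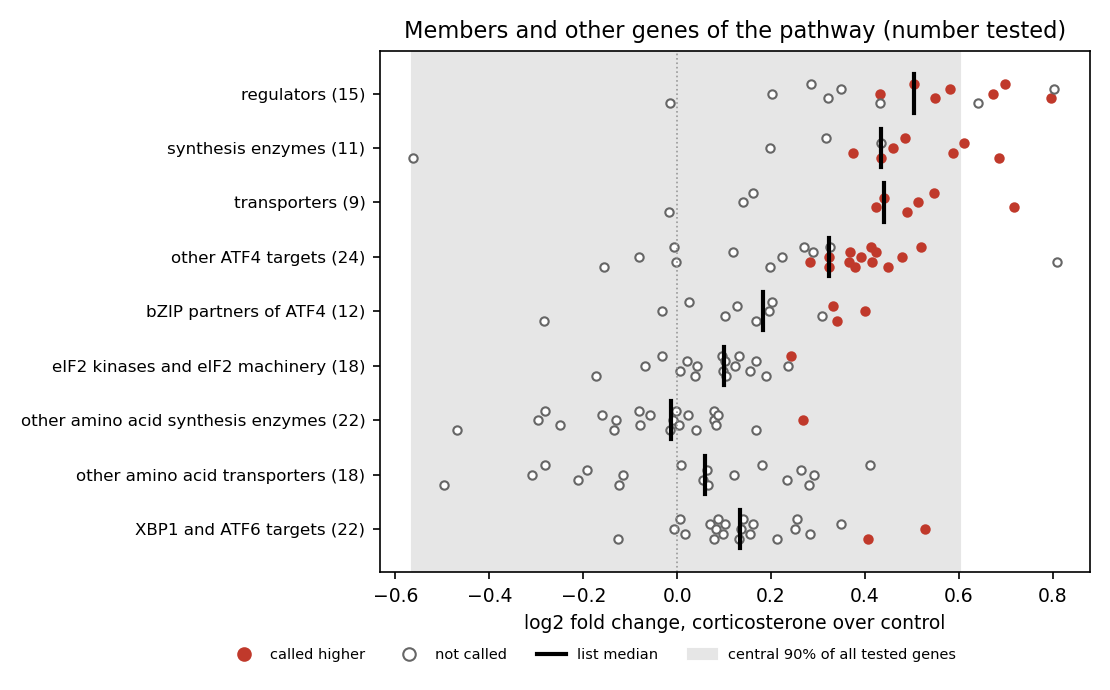
Log2 fold change (corticosterone over control) of every tested gene in the 3 roles and in 6 other gene lists, with the number tested in brackets. Filled red points were called higher, open points were not called, the black bar is the median of the list, and the grey band holds the central 90% of all tested genes, from -0.56 to 0.60. The medians of the 3 roles lie between 0.44 and 0.50, and those of the other lists between -0.01 and 0.32.

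Library totals ran from 62175495 to 66249288 counts, and 22244 to 22683 genes had at least 1 count. All 7 epithelial markers were above 1 FPKM, with sums of 1339 to 1582 FPKM with corticosterone and 1441 to 1497 FPKM in controls. Of 7 leukocyte markers 2 were (Itgam and Csf1r), with sums of 4.13 to 5.44 FPKM with corticosterone and 4.29 to 4.73 FPKM in controls. Of 7 fibroblast markers 1 was (Pdgfra), with sums of 3.70 to 4.25 FPKM with corticosterone and 3.24 to 3.99 FPKM in controls. Of 5 endothelial markers measured none was, with sums of 0.164 to 0.192 FPKM with corticosterone and 0.260 to 0.350 FPKM in controls. The treatment was checked on known glucocorticoid targets: Per1 rose by 1.75, Tsc22d3 by 1.55, Klf9 by 1.28 and Fkbp5 by 0.77 on the log2 scale (highest adjusted p of the 4, 0.00106). The receptor gene Nr3c1 was not called (log2 fold change 0.27, adjusted p = 0.391).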

How the data were processed

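Counts per gene and library were deposited by the authors, per the file headers, as whole numbers that were not normalized. FPKM, also deposited, is per the file headers a level scaled to length and library depth, and the length used for each gene is not given. Per the labels, total RNA was the starting material. The sources used here name no aligner, counter or strandedness. The submitters' processing notes name the human build GRCh38, but all 28154 identifiers are mouse, and 28086 were found in GENCODE M21 (build GRCm38), 90.4% of them with identical coordinates, as were 32 of the 35 members. Coordinates of genes are those of the deposited table.

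Groups came from the treatment label and replicate numbers from the titles. Counts were scaled with edgeR's TMM factors, filtered with filterByExpr (minimum count 10, minimum total 15), and fitted in edgeR 4.0.16 (R 4.3.3) with quasi-likelihood tests of 3 corticosterone against 3 control libraries. Benjamini-Hochberg adjustment covered 17283 genes, with a threshold of 0.05. The SE is the size of the log2 fold change over the square root of F. The common biological coefficient of variation was 0.135. Fold changes are corticosterone over control.

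Same-numbered libraries did not deviate together (Pearson r of 0.00, 0.03 and -0.08), so they were not paired. No libraries of a group agreed within sampling noise (chi-square over degrees of freedom 8.5 to 63.3). Alternatives were median ratio scaling, no filter on low counts, DESeq2 1.42.0, limma 3.58.1 on log2(FPKM + 1) with at least 1 FPKM in 3 libraries, on log2(FPKM + 0.1) and without that filter, the replicate block, and each library left out in turn. Offsets for GC content and length were added after seeing the data. The tests were checked on simulated counts that held no trend of a library on GC content or length. That check therefore does not cover the trends seen in these libraries.

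The members and the gene lists were chosen with earlier results of these data known. All members could be named. Of each other list, up to 4 called genes with the lowest p were named, or up to 2 where none was called, and 5 genes checked the treatment. The paralogue partners Shmt1, Mthfd1 and Gpt were named outside this rule, after their values were seen. Near-identical transcripts (at least 200 aligned bases at 95% identity) and opposite-strand exons were looked up in GENCODE M21. Intervals and floors cover counting error only.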

Additional observations from a re-analysis of the deposited data

How the results depend on the processing

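The 20 members that rose and the 15 that were not called kept their direction under every alternative that gave them a value, except Nupr1 and Slc1a5, whose log2 fold changes are near 0. The filtered limma fits gave none for Gdf15, Fgf21, Vldlr, Cbs and Slc7a3. Nupr1 turned positive without control replicate 2 (0.02) or 3 (0.06) and without corticosterone replicate 1 (0.02) or 3 (0.08), in a range of -0.151 to 0.080 over the libraries left out. Slc1a5 turned without control replicate 2 (0.00) or 3 (0.01), without corticosterone replicate 3 (0.02) and with the GC and length offsets (0.031), in a range of -0.065 to 0.020 over the libraries left out. Median ratio scaling changed no call of a member. Members called higher were 12 with no filter on low counts, against 20, and 7 to 27 when a library was left out.

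Regulators called higher were 3 with no filter and 11 with DESeq2, against 7, and 2 to 10 without a library. Synthesis enzymes were 3 to 10 without a library, against 7. Transporters were 3 with no filter and 3 with limma without its filter, against 6, and 2 to 7 without a library. Over all genes, those called higher and lower were 112 and 99 with no filter, 564 and 567 with DESeq2, 135 and 125 with limma without its filter, and 463 and 567 with the offsets, against 234 and 253, and ran from 60 to 1884 and from 28 to 1786 without a library.

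Genes for eIF2 and its kinases called higher were 0 with no filter and 0 with the offsets, against 1, and 0 to 5 without a library. Leucine zipper partners were 0 with no filter and 0 with limma without its filter, against 3, and 0 to 4 without a library. Other ATF4 targets were 7 with no filter and 8 with limma without its filter, against 13, and 2 to 19 without a library. Other synthesis enzymes were 0 with no filter, against 1, and 0 to 2 without a library. Other transporters were 1 with DESeq2, against 0, and 0 to 2 without a library. Targets of XBP1 and ATF6 were 5 with DESeq2 and 5 with the offsets, against 2, and 1 to 10 without a library. Promoters with the element were 3 by the longer spelling and 17 by the short core, against 10.

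The libraries share only a number, so the replicate block is an alternative: with it 130 genes were called higher and 107 lower, 18 members were called higher (Stc2 and Shmt2 were lost), and the lists for eIF2, leucine zipper partners, other ATF4 targets and other synthesis enzymes had 0, 0, 6 and 0 genes called higher. Leaving out a library or dropping a filter changes the number of libraries or genes tested. Other causes were not tested. Depth limited Gdf15, Fgf21 and Cbs, at 0 to 26 counts.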
